A study of Mus musculus with 30 samples.

Results

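The 40 constitutive proteasome genes of the mouse were examined in liver mRNA under cisplatin, CRS and a pump that delivered ACBP. They were the genes of the deposited count table whose symbol is Psma, Psmb, Psmc, Psmd or Psme followed by digits only, without the immunoproteasome genes Psmb8, Psmb9 and Psmb10, and made up 40 of 48440 genes. By their known place in the complex, 8 encode subunits of the alpha ring (Psma1 to Psma8), 8 of the beta ring (Psmb1 to Psmb7 and Psmb11), 6 the ATPases of the base (Psmc1 to Psmc6), 11 other subunits of the base and the lid, 3 assembly factors of the base (Psmd5, Psmd9 and Psmd10) and 4 activators (Psme1 to Psme4). The livers came from wild-type female C57BL/6 J mice, aged 8 weeks when an ALZET osmotic pump was placed, with 5 libraries in each of 6 groups. In the groups PBS, CDDP and CRS the pump held PBS, and in ACBP, CDDP+ACBP and CRS+ACBP it held ACBP/DBI, the acyl-CoA-binding protein, at 2.5 mg/mL. Anorexia was induced 48 h after the pump by CRS, letters that the labels do not spell out, or 72 h after it by CDDP (cisplatin), a platinum drug that crosslinks DNA. The PBS and ACBP groups had the pump alone, and no group had its food restricted alone, so that a difference after CDDP or CRS cannot be told apart from one after eating less. The labels do not say that each library is a separate animal, so that the p-values measure the spread between libraries, which may be in part technical.

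The proteasome degrades proteins that carry ubiquitin chains. Its core particle is a barrel of alpha and beta rings with 3 kinds of catalytic subunit, encoded by Psmb5, Psmb6 and Psmb7. The regulatory particle, with a base of ATPases and a lid, binds and unfolds the substrate and removes its ubiquitin. Other caps, the activators, open the core without ubiquitin. In cells exposed to interferon the catalytic subunits of Psmb8, Psmb9 and Psmb10 replace those of Psmb5, Psmb6 and Psmb7. The transcription factor of Nfe2l1 raises proteasome genes together when degradation is blocked.

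Reads on genes ranged from 13957380 to 18479134 per library. Levels are CPM, read counts scaled to the library's reads on genes with TMM factors. Cdkn1a, a p53 target that marks DNA damage, checked the cisplatin label. It ranged from 153 to 448 CPM in CDDP, from 5.13 to 63.4 CPM in CDDP+ACBP and from 0.686 to 12.1 CPM in the libraries without cisplatin. The library labelled CDDP+ACBP replicate 4, at 5.13 CPM, thus lay within the range of untreated libraries, and each comparison that holds CDDP+ACBP rests partly on it. Summed muscle transcripts (12 markers) ran from 3.22 to 10100 CPM, and 10 libraries rich in them or in brain transcripts were left out as an alternative. The share of reads on genes of the mitochondrial genome was 2.74 to 3.81% in CDDP and 9.24 to 13.5% in PBS, without overlap. It was 6.95 to 17.4% in CRS, 8.3 to 11.7% in ACBP, 5.43 to 12.6% in CDDP+ACBP and 4.73 to 15.3% in CRS+ACBP.

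Of the 40 genes, 39 passed the filter on low counts. Psmb11, the catalytic subunit of the thymic epithelium, was left untested, with at most 0.203 CPM in any library and 0 CPM in 27 of 30. Psma8, the alpha subunit of the testis, was tested at 0 to 1.71 CPM. The testis markers Prm1 and Tnp1 summed to 0.127 CPM at most. The other 38 genes were read in every library. In PBS livers their mean levels per length, as CPM per kilobase of the principal transcript (RPKM), ran from 2.78 for Psmd10 to 255 for Psmb6, with a median of 34.9. The highest levels per length were those of the catalytic subunit Psmb6 (255 RPKM), the beta subunit Psmb3 (176 RPKM), the alpha subunits Psma7 (143 RPKM) and Psma4 (104 RPKM) and the activator Psme1 (102 RPKM). The lowest were those of the assembly factors Psmd10 (2.78 RPKM) and Psmd5 (3.13 RPKM), the base scaffold Psmd1 (4.48 RPKM), the activator Psme4 (4.66 RPKM) and the lid subunit Psmd13 (9.66 RPKM). The highest of these levels was 91.7 times the lowest in PBS and 46.7 times in CDDP.

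The antioxidant response element, to which factors of the Nfe2l1 family bind, was looked for in the promoters, 250 bases before to 50 bases after the RefSeq start (GRCm38.p6, the same assembly as mm10). A window was given for 33 of the 40 genes. The letters TGACNNNGC, on either strand, were found in 6 of them: Psmb5, Psmb6, Psmc6, Psmd9, Psmd12 and Psme4. Among all 32851 windows of this length 12.4% hold these letters. They stood in 4 of 22 windows of genes that rose under cisplatin and in 2 of 11 windows of the other genes. The 4 promoters shown are those of Psmd13, the gene with the largest rise under cisplatin, of Psmd9 and Psme4, which rose and hold the element, and of Psmb6, which holds it and whose levels overlapped between the groups. Capitals mark the element, and Psmd13 has none.
Psmd13 chr7:140882144-140882443, plus strand: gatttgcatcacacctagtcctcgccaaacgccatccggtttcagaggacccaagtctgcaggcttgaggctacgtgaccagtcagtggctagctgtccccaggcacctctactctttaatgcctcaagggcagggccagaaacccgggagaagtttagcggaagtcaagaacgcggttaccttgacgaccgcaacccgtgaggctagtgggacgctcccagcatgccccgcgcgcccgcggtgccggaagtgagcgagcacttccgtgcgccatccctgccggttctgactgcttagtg
Psmd9 chr5:123227940-123228239, plus strand: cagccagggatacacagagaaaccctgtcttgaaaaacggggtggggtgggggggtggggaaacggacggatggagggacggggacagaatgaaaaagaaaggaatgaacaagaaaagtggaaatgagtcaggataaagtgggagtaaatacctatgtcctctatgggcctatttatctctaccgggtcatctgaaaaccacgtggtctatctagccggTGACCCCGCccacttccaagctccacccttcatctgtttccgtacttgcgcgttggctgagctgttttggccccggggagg
Psme4 chr11:30771525-30771824, plus strand: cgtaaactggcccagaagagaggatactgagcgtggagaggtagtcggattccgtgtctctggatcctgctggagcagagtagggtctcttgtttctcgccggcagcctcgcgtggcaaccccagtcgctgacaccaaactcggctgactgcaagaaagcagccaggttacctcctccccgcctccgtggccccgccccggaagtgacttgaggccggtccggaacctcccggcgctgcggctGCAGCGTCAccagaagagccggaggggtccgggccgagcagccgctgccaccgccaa
Psmb6 chr11:70525107-70525406, plus strand: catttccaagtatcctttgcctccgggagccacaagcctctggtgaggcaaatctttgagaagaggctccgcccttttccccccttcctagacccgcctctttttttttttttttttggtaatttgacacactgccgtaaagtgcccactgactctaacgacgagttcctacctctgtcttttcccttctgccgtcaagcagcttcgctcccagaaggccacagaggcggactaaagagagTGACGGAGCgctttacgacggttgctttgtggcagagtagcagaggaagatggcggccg
The element began 31 bases before the start in Psmd9, 9 bases before it in Psmb6 and 7 bases before it, on the opposite strand, in Psme4. For Psmd9 the RefSeq start lies inside the span of the gene in the mm10 annotation (123169413 to 123250131), not at its first base. The CCAAT box was in 13 of 33 windows (37.4% of all), 8 of 22 of the genes that rose and 5 of 11 of the others. The core of the interferon-stimulated response element, GAAA, then 2 bases of any kind, then GAAA, was in 4 of 33 windows (3.44% of all), those of Psmb3, Psmd4, Psmd9 and Psme1, of which only Psmd9 rose. These matches describe letters and are not binding sites.

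What cisplatin changed in the proteasome was read from CDDP against PBS. Transcripts of most subunits were higher: edgeR called 28 of 39 genes higher and 1, Psme2, lower (Benjamini-Hochberg adjusted p under 0.05 over 16304 genes). Over all genes 23.1% were called higher and 18.3% lower. The median log2 fold change of the 39 genes was 0.74, against 0.02 over all genes. The summed level of the 40 genes was 2323, 2668, 2697, 2683 and 2299 CPM in PBS and 3242, 4411, 3219, 3968 and 4970 CPM in CDDP. Each CDDP library was above each PBS library, with CDDP replicates 2 and 5 highest. In 25 of the 39 genes the 5 CDDP libraries all lay above the 5 PBS libraries, which held for 13.4% of all genes, and in 0 they all lay below, which held for 11.3%. By class, 4 of 8 alpha, 4 of 7 beta, 5 of 6 ATPase, 10 of 11 other base and lid genes, 3 of 3 assembly factors and 2 of 4 activators were called higher. The share of mitochondrial reads differed between the same groups without overlap, and its relation to these genes is given after the classes.

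**Figure D1:**
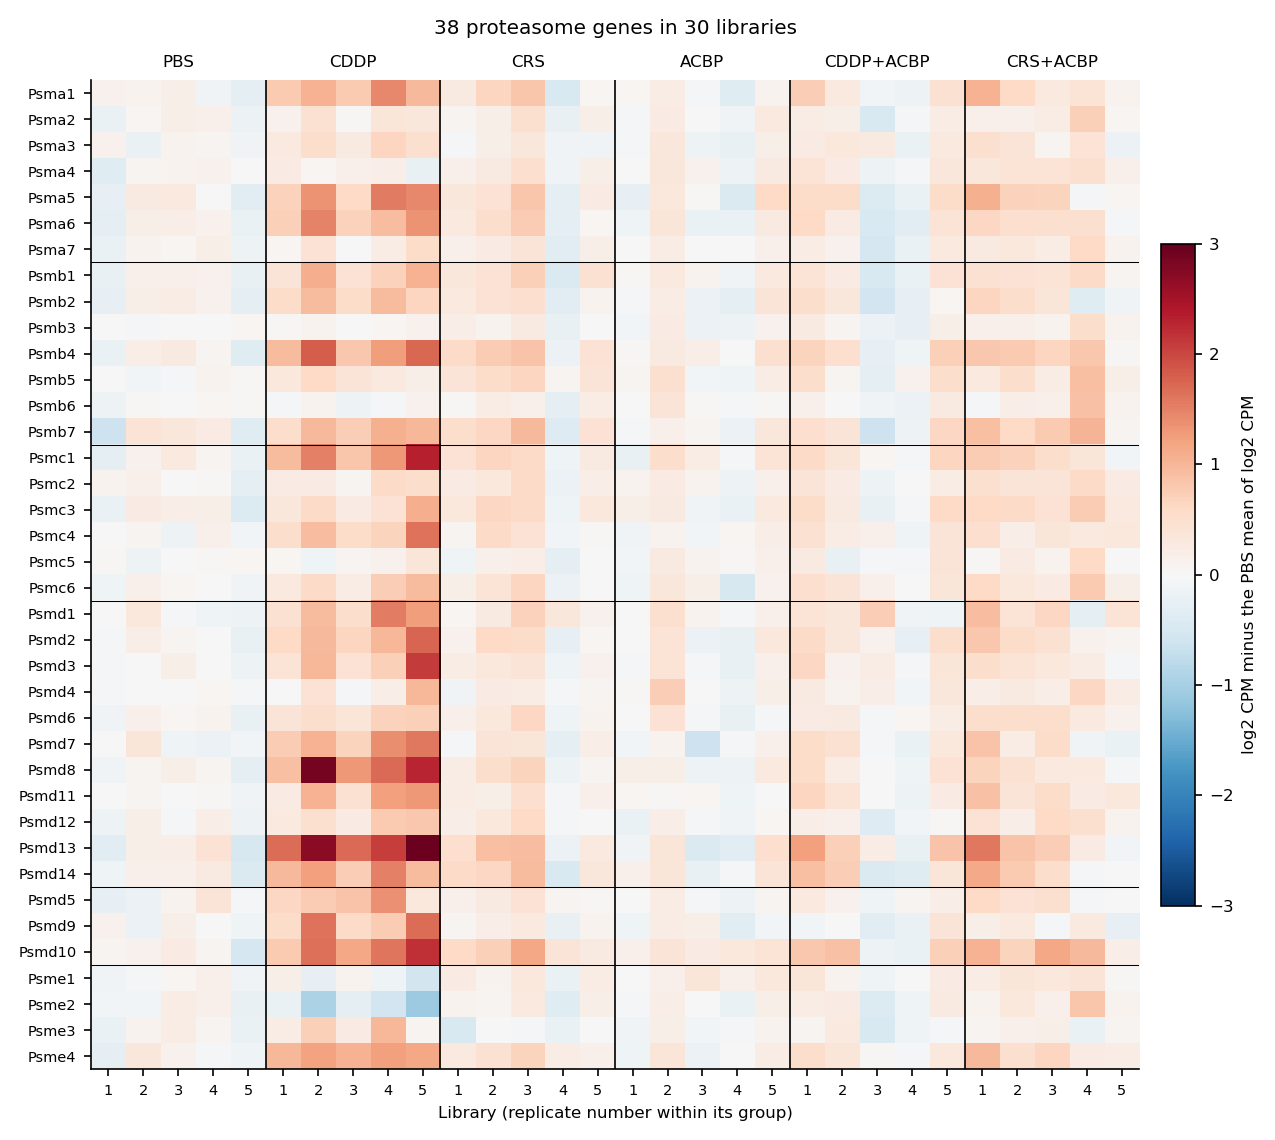
Level of 38 proteasome genes (rows, by class: alpha ring, beta ring, ATPases, other base and lid subunits, assembly factors, activators) in 30 libraries (columns, 5 per group), as log2 CPM minus the PBS mean of log2 CPM. The CDDP columns are the reddest, up to 2.94, with Psme2 blue there, while Psmb3 and Psmb6 are pale throughout CDDP.

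In the alpha ring Psma1, Psma3, Psma5 and Psma6 rose. Identifiers and positions in brackets are those of the mm10 annotation. Psma6 (ENSMUSG00000021024.14, chromosome 12, 55384222 to 55418454) stood at 42.5, 58, 59.2, 56.2 and 44.6 CPM in PBS and at 84.1, 145, 83.2, 97.6 and 131 CPM in CDDP. The groups did not overlap, and the log2 fold change was 1.05 ± 0.21, adjusted p = 2.91e-04. Psma1 (ENSMUSG00000030751.18, chromosome 7, 114264606 to 114276118) stood at 38.6, 37.7, 39.6, 32.8 and 28.7 CPM in PBS and at 60.6, 72.5, 60.3, 95.4 and 69.4 CPM in CDDP, also without overlap (1.01 ± 0.21, adjusted p = 3.31e-04). Psma5 rose by 1.16 ± 0.25 and Psma3 by 0.45 ± 0.14 (log2). Psma2, Psma4 and Psma7 were not called, at 0.26 ± 0.15, 0.08 ± 0.14 and 0.27 ± 0.15, and Psma8 stood near the detection limit.

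In the beta ring the 4 called genes were Psmb1, Psmb2, Psmb4 and Psmb7. Psmb4, a noncatalytic subunit (ENSMUSG00000005779.12, chromosome 3, 94884093 to 94886961), had the largest rise of the core particle, from 77.3, 103, 108, 94.1 and 69.1 CPM in PBS to 173, 314, 156, 212 and 295 CPM in CDDP (1.35 ± 0.22, adjusted p = 3.56e-05). The noncatalytic subunit Psmb1 (ENSMUSG00000014769.9, chromosome 17, 15475021 to 15499751) rose from 80.7, 105, 105, 102 and 79.9 CPM to 122, 199, 127, 151 and 193 CPM (0.74 ± 0.19, adjusted p = 0.00261). In both genes each CDDP library lay above each PBS library. Of the 3 catalytic subunits only Psmb7 was called, and differences between them were not tested. Psmb7, the trypsin-like subunit (ENSMUSG00000026750.6, chromosome 2, 38588036 to 38644087), stood at 44.8, 90.7, 86.9, 81.4 and 53.2 CPM in PBS and 99.8, 135, 114, 144 and 136 CPM in CDDP, without overlap (0.81 ± 0.24, adjusted p = 0.00712). Psmb5, the chymotrypsin-like subunit (ENSMUSG00000022193.6, chromosome 14, 54614119 to 54618022), stood at 72.1, 68.9, 70.7, 77.5 and 73.9 CPM in PBS and 90.6, 110, 95.2, 89.4 and 81.7 CPM in CDDP. Its groups did not overlap, but it missed the threshold (0.36 ± 0.16, adjusted p = 0.0675). Psmb6, the caspase-like subunit (ENSMUSG00000018286.6, chromosome 11, 70525367 to 70527858), stood at 184, 207, 205, 212 and 210 CPM in PBS and 195, 220, 182, 197 and 224 CPM in CDDP. These values overlap widely, and the 95% interval of its log2 fold change ran from -0.31 to 0.31. Psmb3 was not called either, at 0.07 ± 0.13.

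Among the ATPases of the base, Psmc1 (ENSMUSG00000021178.8, chromosome 12, 100110154 to 100123405) rose from 46.2, 61.1, 68.3, 59.3 and 48.5 CPM in PBS to 108, 159, 99.7, 139 and 281 CPM in CDDP (1.48 ± 0.23, adjusted p = 1.82e-05). Psmc4 (ENSMUSG00000030603.16, chromosome 7, 28041707 to 28050101) rose from 63, 66.4, 57, 70.4 and 60 CPM to 90.8, 120, 92.9, 99.7 and 195 CPM (0.92 ± 0.17, adjusted p = 1.32e-04). Neither gene overlapped between the groups, and CDDP replicate 5 was the highest library in both. Psmc2, Psmc3 and Psmc6 rose by 0.34 ± 0.14, 0.55 ± 0.19 and 0.58 ± 0.17 (log2). Psmc5 was not called, at 0.10 ± 0.14.

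The other subunits of the base and the lid held the largest rises. Psmd13, a lid subunit (ENSMUSG00000025487.15, chromosome 7, 140881968 to 140898643), stood at 14.9, 21, 21.5, 25.4 and 13.3 CPM in PBS and 59.2, 121, 60.7, 78.6 and 143 CPM in CDDP (2.27 ± 0.32, adjusted p = 4.01e-06). Psmd8, another lid subunit (ENSMUSG00000030591.17, chromosome 7, 29174188 to 29180701), stood at 48.9, 55.7, 59.5, 55.2 and 43.7 CPM in PBS and 98.5, 382, 129, 170 and 254 CPM in CDDP (1.97 ± 0.25, adjusted p = 1.21e-06). The CDDP libraries of both genes were widely spread, with replicates 2 and 5 highest, and the lowest of them was above each PBS library. The scaffold subunits Psmd1 and Psmd2 rose by 0.99 ± 0.21 and 1.05 ± 0.21, and Psmd14, the deubiquitinase of the lid, by 1.08 ± 0.26 (log2). The lid subunits Psmd3, Psmd7, Psmd11, Psmd6 and Psmd12 rose by 1.09 ± 0.23, 1.11 ± 0.21, 0.91 ± 0.17, 0.54 ± 0.14 and 0.53 ± 0.15. Psmd4, a ubiquitin receptor, was not called, at 0.37 ± 0.17. All 3 assembly factors rose. Psmd10, gankyrin (ENSMUSG00000031429.14, chromosome X, 140948429 to 140956728), stood at 4.13, 4.28, 4.61, 4.12 and 2.74 CPM in PBS and 6.76, 12.3, 8.81, 12 and 18 CPM in CDDP (1.54 ± 0.25, adjusted p = 2.99e-05). Psmd9 (ENSMUSG00000029440.15, chromosome 5, 123169413 to 123250131) stood at 37.6, 30.6, 39, 34.9 and 31.7 CPM and 50.7, 107, 51.2, 59 and 110 CPM (1.12 ± 0.19, adjusted p = 5.43e-05), and Psmd5 rose by 0.80 ± 0.16. Neither Psmd9 nor Psmd10 overlapped between the groups. Of the exonic bases of Psmd9, 25.5% are shared with the antisense gene Gm26745, the largest such share among the 40 genes, and the strand setting of the counting is not given in the sources used here. Psmb7 shares 11.8% with Nek6 and Psmd13 10.1% with Sirt3, both antisense, and Psmb5 shares 12.1% with Mir686 on its own strand.

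The activators moved in both directions. Psme4, a large nuclear activator (ENSMUSG00000040850.17, chromosome 11, 30771726 to 30880361), stood at 24.6, 38, 32.7, 28.5 and 27.3 CPM in PBS and at 59.7, 69, 62, 69.9 and 66.7 CPM in CDDP (1.11 ± 0.15, adjusted p = 3.02e-06). The 5 CDDP libraries lay close together, all above the highest PBS library. Psme3, a nuclear activator related to Psme1 and Psme2, rose by 0.48 ± 0.15 (log2). Psme1 and Psme2 encode the paired cytosolic activator that interferon induces. Psme1 was not called, at -0.12 ± 0.13. Psme2 (ENSMUSG00000079197.10, chromosome 14, 55587441 to 55591113) stood at 82.3, 82.8, 103, 97.5 and 75.2 CPM in PBS and at 76.7, 45, 71.5, 59.2 and 41 CPM in CDDP (-0.59 ± 0.18, adjusted p = 0.00917). It was the only gene of the 39 called lower, and the highest CDDP library (76.7 CPM) overlapped the lowest PBS library (75.2 CPM). Psme2b, a close copy with which it may share reads, was at 12.3 to 18.7 CPM in PBS and 12.3 to 20 CPM in CDDP.

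**Figure D2:**
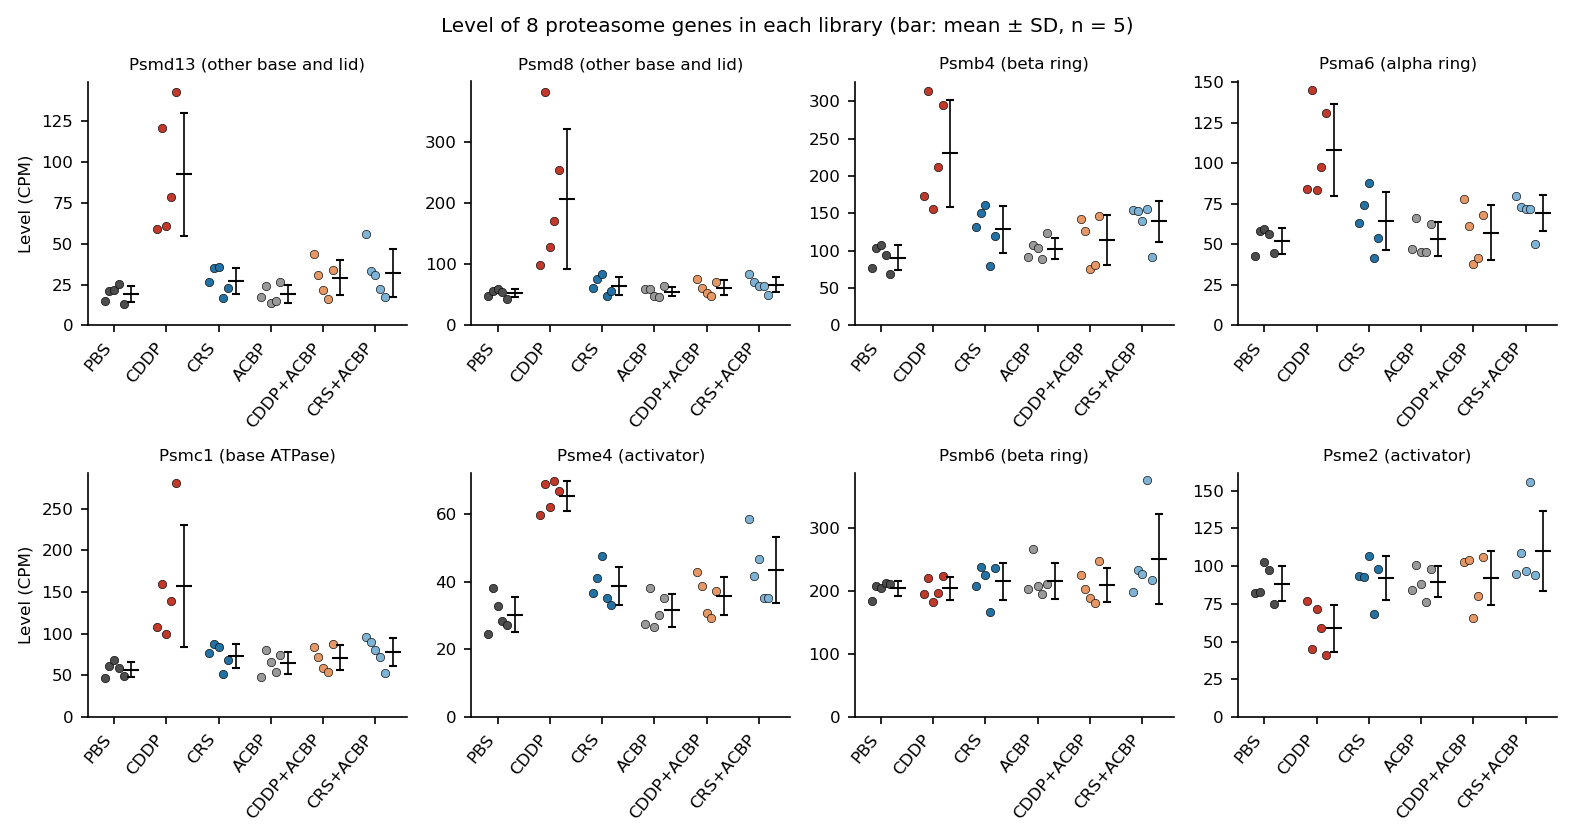
Level in CPM (linear axes from 0) of 8 proteasome genes in the 30 libraries, 1 point per library and 5 per group, with the mean and SD as a bar. In Psmd13, Psmd8, Psmb4, Psma6, Psmc1 and Psme4 the CDDP libraries stand above the PBS libraries without overlap, in Psmb6 they overlap, and in Psme2 4 of 5 lie below each PBS library.

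**Figure D3:**
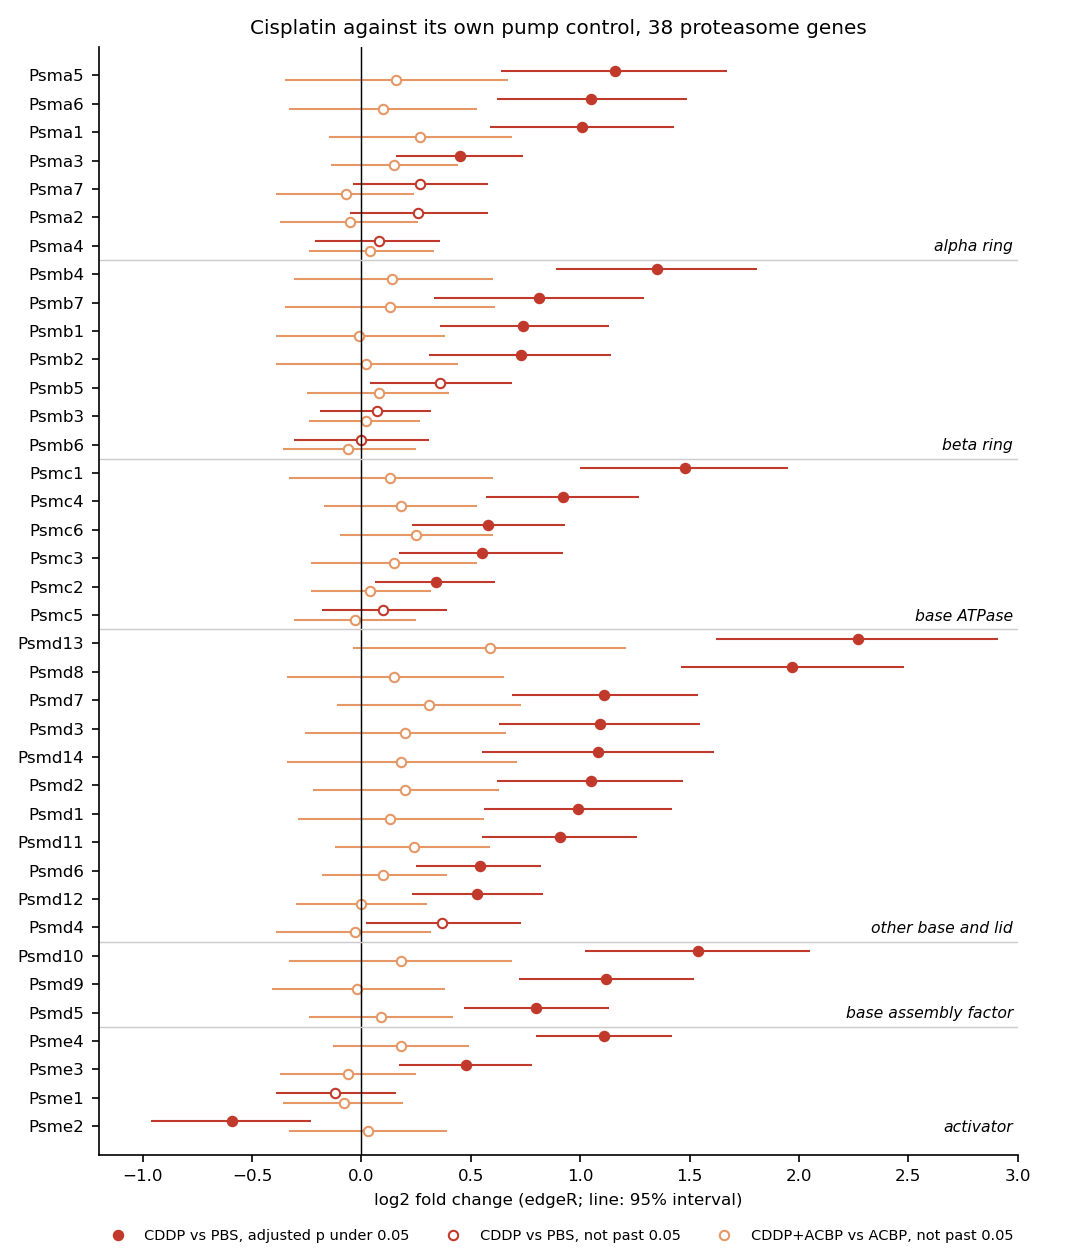
Log2 fold change with its 95% interval (edgeR) of 38 proteasome genes by class, for CDDP against PBS (red) and CDDP+ACBP against ACBP (orange); filled points have an adjusted p under 0.05. The red points reach 2.27 (Psmd13), and no orange point is filled.

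Genes with low levels rose most often. Ranked by level per length in the ACBP group, whose libraries are not in the comparison, 10 of the 19 higher genes and 18 of the 19 lower genes were called higher in CDDP, with median log2 fold changes of 0.37 and 1.01. Spearman's rho between level and log2 fold change over the 38 genes was -0.60 per length and -0.63 in CPM, against 0.11 in CPM over all 16304 genes. This is a description across genes, which are not independent replicates. The spread of the 38 levels narrowed with it, from an SD of 1.56 in PBS to 1.32 in CDDP (log2 RPKM).

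Levels of these genes also moved with the mitochondrial share of reads inside the groups. Within groups, in a fit with 6 group terms and the log2 share as a slope, 28 of 39 genes were called lower with a higher share and 0 higher, where over all genes 8.42% were called lower and 5.23% higher. The unadjusted p was under 0.05 for 33 of the 39 and for 27.7% of all genes. The median slope was -0.40 log2 units per doubling of the share, against 0.02 over all genes. The 7 tested beta ring genes were all called, from Psmb7 (-0.80 ± 0.12, adjusted p = 3.12e-04) and Psmb4 (-0.73 ± 0.11) to Psmb3 (-0.30 ± 0.08). In the alpha ring 7 of 8 were called, led by Psma6 (-0.68 ± 0.11), as were 4 of 6 ATPase genes. In the base and lid 6 of 11 were called, among them Psmd13 (-0.88 ± 0.19) and Psmd14 (-0.76 ± 0.16), while Psmd1 had a slope of -0.03 ± 0.16. Psmb3 (-0.30 ± 0.08) and Psmb6 (-0.33 ± 0.10), whose levels overlapped between CDDP and PBS, had slopes that passed. The slopes of Psmc4 (-0.21 ± 0.13), Psmd3 (-0.38 ± 0.16) and Psmd11 (-0.31 ± 0.12), which rose, did not pass. Differences between the slopes of these genes were not tested. Without the CDDP group 33 of 38 tested genes were called lower (12.1% of all genes in that fit). Without CRS replicate 4 (17.4% mitochondrial reads) 17 of 39 were (4.54% of all genes), and without the libraries rich in muscle or brain transcripts 18 of 39 (6.79% of all genes).

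The library values below are those to which the slopes were fitted, so they are no separate test. How often each library ranked lowest or highest of its group over all genes was not counted. In CRS, replicate 4 had the highest share (17.4%) and was the lowest of its group in 32 of the 39 tested genes, and replicate 3 had the lowest share (6.95%) and was the highest in 30. In CRS+ACBP, replicate 5 (15.3%) was the lowest in 28 genes. In CDDP+ACBP, replicates 3 (12.6%) and 4 (11.9%) were the lowest in 20 and 17 genes. In CDDP, where the share spans only 2.74 to 3.81%, replicate 3 (3.67%) was the lowest in 18 genes and replicate 5 (3.38%) the highest in 19. With the log2 share as a covariate edgeR called 0 of 39 genes higher in CDDP than in PBS and 1 lower, Psme2 (-1.24, adjusted p = 0.00707), where 2.35% of all genes were called higher and 2.43% lower. The unadjusted p was under 0.05 for 11 of the 39 and for 22.1% of all genes. Since the shares of CDDP and PBS do not overlap, the drug and the share cannot be told apart in these libraries. Taking the mitochondrial genes out of the library sizes left 27 genes called higher and 1 lower in CDDP against PBS, where 22.1% of all genes were higher and 19% lower.

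**Figure D4:**
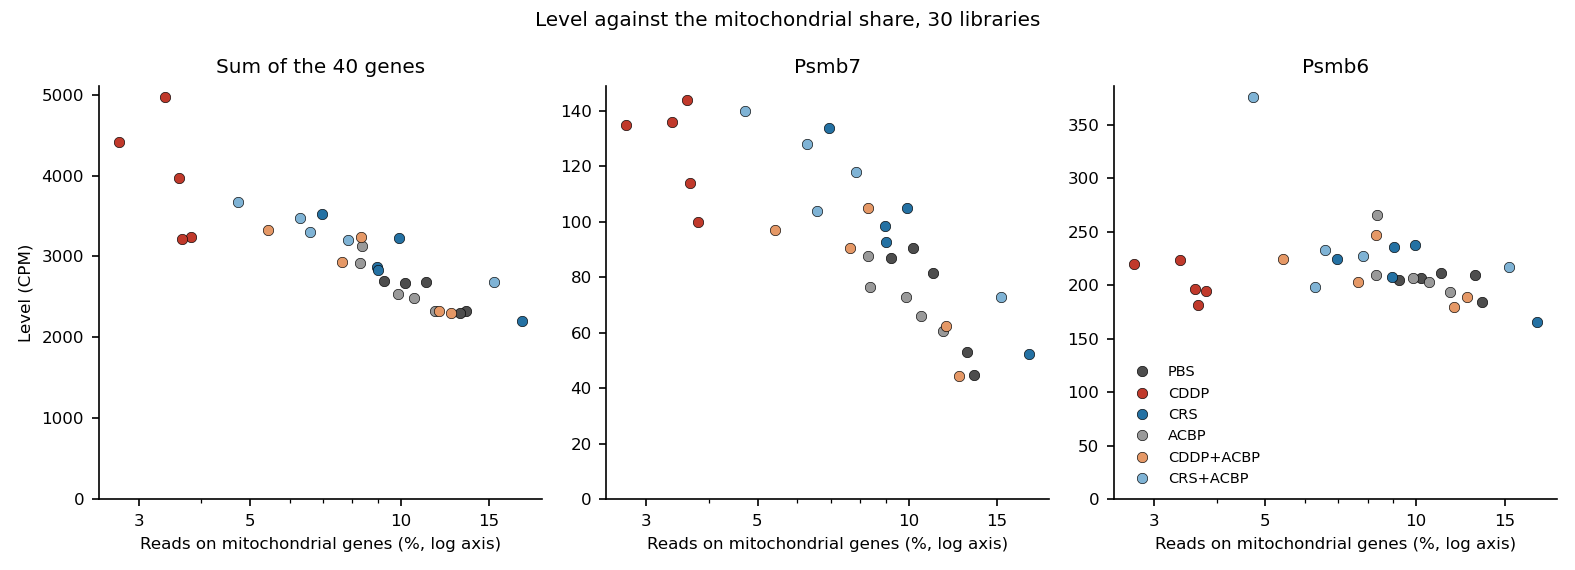
Level in CPM against the share of reads on mitochondrial genes (percent, log axis) in 30 libraries, coloured by group, for the sum of the 40 genes, for Psmb7 and for Psmb6. The 5 CDDP libraries stand apart at 2.74 to 3.81%, and outside them the sum and Psmb7 fall as the share rises.

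The immunoproteasome genes, which interferon induces and which are not among the 40, moved the other way. Psmb8 stood at 39.8, 37.2, 51.2, 45.9 and 37.3 CPM in PBS and 38.7, 20.7, 26.7, 21.3 and 27.8 CPM in CDDP (log2 fold change -0.65 ± 0.16, adjusted p = 0.00192). Psmb9 stood at 23.4, 18.4, 27.3, 21.2 and 18.3 CPM and 13.9, 11.2, 12.8, 7.15 and 5.95 CPM (-1.09 ± 0.21, adjusted p = 2.13e-04). Psmb10 stood at 66.3, 54.9, 91.1, 69.9 and 76.7 CPM and 57.1, 27.7, 66.7, 44.6 and 32 CPM (-0.66 ± 0.20, adjusted p = 0.0106). All 3 were called lower, and CDDP and PBS libraries overlapped in Psmb8 and Psmb10 and not in Psmb9. The call of Psmb10 was lost by limma voom (adjusted p = 0.0572) and in a fit of the 2 groups alone (adjusted p = 0.0506). With the mitochondrial share as a covariate Psmb8 (-0.99) and Psmb9 (-1.21) were again called lower and Psmb10 (-0.87) was not. Within groups none of the 3 slopes passed, at -0.21 ± 0.12, -0.07 ± 0.16 and -0.13 ± 0.16.

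Each immunoproteasome subunit was set against the constitutive subunit it replaces, as the log2 ratio of their counts in a library, with 2-sided exact permutation tests adjusted over 21 tests. The ratio of Psmb8 to Psmb5 was -0.79 ± 0.20 (SD, n = 5) in PBS and -1.82 ± 0.46 in CDDP, a difference of -1.03 (exact permutation p = 0.00794, the smallest that 5 against 5 allow, adjusted p = 0.0333). Psmb9 over Psmb6 went from -3.24 ± 0.29 to -4.39 ± 0.62 and Psmb10 over Psmb7 from 0.04 ± 0.54 to -1.53 ± 0.71, with the same exact p and adjusted p. As shares of the pair, Psmb8 made up 33.6 to 42.0% in PBS and 15.8 to 29.9% in CDDP, Psmb9 8.03 to 11.8% and 2.59 to 6.66%, and Psmb10 37.7 to 59.7% and 17 to 37.0%. No pair overlapped between the groups. For Psmb8 over Psmb5 and for Psmb9 over Psmb6 only the immunoproteasome partner was called in CDDP against PBS. In the pair of Psmb10 and Psmb7 both were. In CDDP+ACBP the ratio was higher than in CDDP by 1.23 for Psmb9 over Psmb6 and by 1.40 for Psmb10 over Psmb7 (exact permutation adjusted p = 0.0333 for each), and by 0.84 for Psmb8 over Psmb5 (adjusted p = 0.0556). The other differences did not pass. Within groups the slope on the mitochondrial share was -0.80 for Psmb7 and -0.13 for Psmb10. It was -0.33 for Psmb6 and -0.07 for Psmb9, and -0.41 for Psmb5 and -0.21 for Psmb8. The share did not overlap between CDDP and PBS or between CDDP and CDDP+ACBP. The ratios and the share thus cannot be told apart in these comparisons, and a slope of the ratios was not tested.

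Transcripts of immune cells were lower in CDDP as well. All 5 B cell markers were called lower, and their summed level was 14.8 to 24.7 CPM in PBS and 1.03 to 6.11 CPM in CDDP. Of the T and NK cell markers 4 of 6 were called lower (3.76 to 6.64 against 0.725 to 2.71 CPM summed), and of the Kupffer cell markers 4 of 6 were lower and 1 higher (201 to 241 against 98.9 to 158 CPM). In these bulk libraries fewer cells of a type and less RNA per cell cannot be told apart. The part of these cells in the values of Psme2, Psmb8, Psmb9 and Psmb10 was not tested. Red cell markers, 4 of 5 of them called lower, summed to 227 to 399 CPM in PBS and 6.99 to 8.86 CPM in CDDP. Of the endothelial markers 3 of 5 were called lower, and their summed level did not overlap (126 to 154 CPM in PBS, 58 to 122 CPM in CDDP). Of the 8 hepatocyte markers 3 were called higher (Apob, Fgb and Hnf4a) and 2 lower (Ttr and Serpina1c), and they summed to 74400 to 103000 CPM in PBS and 81600 to 140000 CPM in CDDP. Markers also moved in CDDP+ACBP against CDDP, where the ratios of Psmb9 and Psmb10 to their partners were higher. All 5 B cell markers, 4 of 6 T and NK cell markers, all 5 red cell markers and 2 of 5 endothelial markers were called higher there. Of the 6 Kupffer cell markers 2 were higher and 1 lower, and of the 8 hepatocyte markers 2 were higher and 3 lower. In CDDP+ACBP the summed levels were 13.5 to 39.3 CPM for B cells and 4.01 to 5.99 CPM for T and NK cells, both above every CDDP library. The part of these cells in the ratios was not tested.

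**Figure D5:**
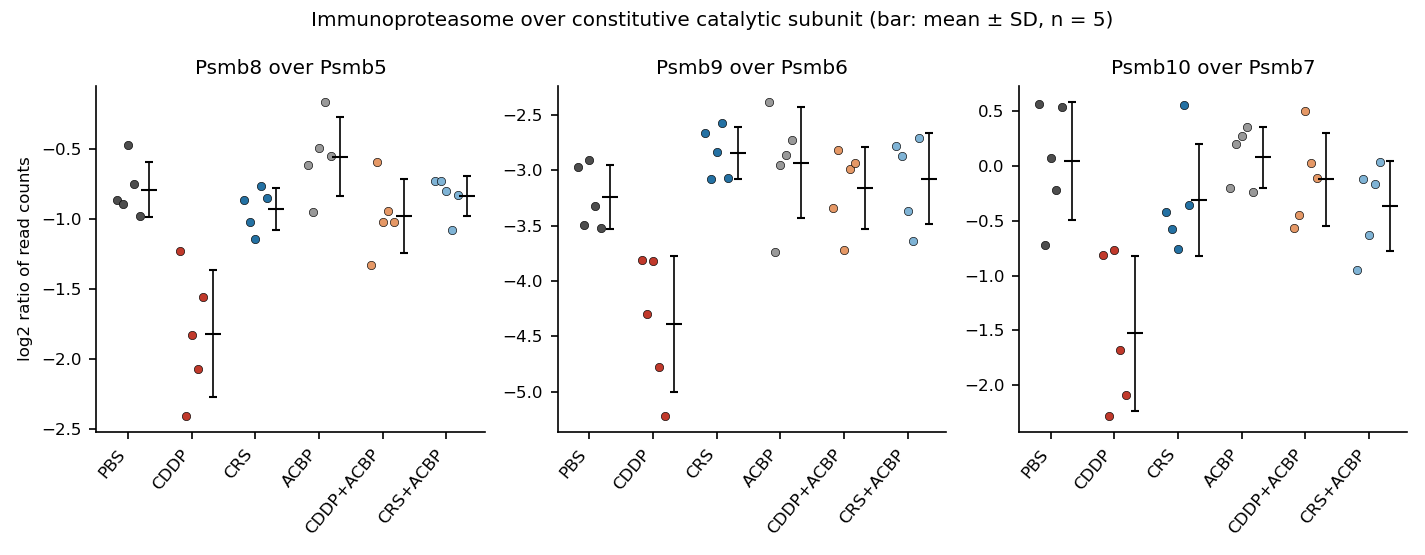
Log2 ratio of the read counts of each immunoproteasome subunit over the constitutive subunit it replaces, 1 point per library and 5 per group, with the mean and SD as a bar. The CDDP libraries lie below every PBS library in all 3 pairs, and the CDDP+ACBP means lie at -0.98, -3.16 and -0.12 (Psmb8 over Psmb5, Psmb9 over Psmb6 and Psmb10 over Psmb7).

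Genes that work with the proteasome were read from lists of textbook members, and their counts stand beside the 23.1% of all genes called higher in CDDP against PBS and the 18.3% called lower. In that comparison all 9 genes of the p97 segregase, which extracts ubiquitinated proteins, and its cofactors were called higher, among them Nploc4 (1.37 ± 0.19, log2 fold change), Vcp (1.08 ± 0.18) and Faf2 (0.80 ± 0.16). Of 12 ubiquitin receptors and deubiquitinases at the proteasome 7 were called higher and 0 lower. Zfand2a, an arsenite-inducible regulator of the proteasome, rose by 1.71 ± 0.27, the shuttle factor Ubqln2 by 1.64 ± 0.27 and the proteasome-bound thioredoxin-like Txnl1 by 1.0 ± 0.16. Of 11 genes of degradation at the endoplasmic reticulum 7 rose and 0 fell, with Vimp at 2.15 ± 0.26, Derl1 at 0.94 ± 0.16 and Edem2 at 0.74 ± 0.12. Of 6 genes of ubiquitin and its activating enzymes 3 rose, with Rps27a, which encodes a ubiquitin fusion, at 1.53 ± 0.23. Of 6 tested assembly chaperones and inhibitors outside the 40 genes 3 rose, Pomp (0.59 ± 0.20), Psmg2 (0.59 ± 0.19) and Psmf1 (0.60 ± 0.18).

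The list around Nfe2l1 was split, with 4 of 11 genes called higher and 5 lower in CDDP against PBS. Maff, a small partner protein, rose by 2.2 ± 0.41 and Ngly1, the glycanase that processes the Nfe2l1 protein, by 0.92 ± 0.18. Nfe2l1 itself was lower by a log2 fold change of -0.37 ± 0.14, its relative Nfe2l2 by -0.71 ± 0.22 and Nfe2l3 by -2.17 ± 0.57. Nfe2l1 stood at 99.9, 166, 105, 102 and 99.4 CPM in PBS and 81, 113, 79, 84 and 88 CPM in CDDP. PBS replicate 2 was apart from the rest of its group, and CDDP replicate 2 lay within the PBS range. Of 8 genes of peptide loading on MHC class I and its regulators 4 were lower and 1 higher, with B2m at -1.07 ± 0.13 and Irf1 at -1.10 ± 0.21. Several of these genes also had negative slopes on the mitochondrial share within groups, such as Pomp (-0.64 ± 0.11) and Rps27a (-0.54 ± 0.15), whereas Nploc4 (-0.08 ± 0.15) and Edem2 (0.10 ± 0.09) did not pass. In CDDP+ACBP against CDDP 7 of the 9 p97 genes, 7 of the 12 receptors and deubiquitinases, 7 of the 11 genes of the endoplasmic reticulum and 3 of the 6 ubiquitin genes were called lower, with 1 gene of these lists higher, where 18.8% of all genes were lower and 14.9% higher. Of the 6 tested assembly chaperones and inhibitors 0 were called there. The Nfe2l1 list had 2 of 11 genes higher and 3 lower, and the MHC class I list 4 of 8 higher and 1 lower. No gene of any of these lists was called in CDDP+ACBP against ACBP, in CRS against PBS or in CRS+ACBP against ACBP.

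Under the ACBP pump cisplatin gave no called change in the 39 genes. In CDDP+ACBP against ACBP edgeR called 0 of 39, where 0.0675% of all genes were called higher and 0.0613% lower. None had an unadjusted p under 0.05, and DESeq2 and limma voom called 0 as well. For these counts the share of all genes is not given here. The median log2 fold change was 0.10, and the 95% intervals of 37 genes lay within 1 log2 unit of 0. The exceptions were Psma8 and Psmd13. Psmd13 stood at 17.3, 24, 13.9, 14.8 and 26.7 CPM in ACBP and 44, 30.6, 21.7, 16 and 33.7 CPM in CDDP+ACBP, overlapping values with a log2 fold change of 0.59 and an interval from -0.04 to 1.21. Psmd8 stood at 59.1, 59.4, 47.4, 46.7 and 63.9 CPM in ACBP and 76.1, 61.5, 52.4, 48.2 and 70.6 CPM in CDDP+ACBP (0.15 ± 0.24). Psmb4 stood at 91.6, 107, 103, 88.6 and 124 and 142, 126, 74.8, 81.3 and 146 CPM (0.14 ± 0.22). In all 3 genes the CDDP+ACBP replicates 3 and 4 were the lowest 2 of their group, the libraries with the highest mitochondrial shares. Psme2 stood at 84.2, 101, 88, 76.3 and 98.4 CPM in ACBP and 103, 104, 65.9, 80.3 and 106 CPM in CDDP+ACBP (0.03 ± 0.18).

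The drug's effect was then compared between the pumps. Cdkn1a, the check of the cisplatin label, was 5.13 to 63.4 CPM in CDDP+ACBP and 153 to 448 CPM in CDDP. The part of a weaker response to the drug as a whole in this comparison was not tested. Against CDDP, the CDDP+ACBP group had 24 of 39 genes lower and 1, Psme2, higher (0.65 ± 0.18, adjusted p = 0.00642), where 18.8% of all genes were lower and 14.9% higher. The largest falls were those of Psmd8 (-1.75 ± 0.25), Psmd13 (-1.67 ± 0.31), Psmc1 (-1.16 ± 0.23) and Psmd9 (-1.15 ± 0.19). Among the 24 were 10 of 11 other base and lid genes, all 3 assembly factors and the activators Psme3 and Psme4. They also held 3 of 8 alpha, 4 of 7 beta and 2 of 6 ATPase genes. Differences between the classes were not tested. The 5 CDDP+ACBP libraries lay below the 5 CDDP libraries in 16 genes, which held for 8.09% of all genes. A fit of these 2 groups alone called 12 genes, all lower, where it called 8.41% of all genes lower. Limma voom called 6 lower and 1 higher (12.3% and 9.31% of all genes), and the fit with the mitochondrial share 3, all of them higher (3.18% of all genes): Psma4, Psme1 and Psme2. The interaction itself, the cisplatin effect with ACBP minus the effect with PBS, was called negative in 16 genes and positive in 0, where 11.3% of all genes were called negative and 8.38% positive. The estimate was negative in 37 of the 39, all but Psme2 and Psme1. Signs were not counted over all genes, and the 39 genes are not independent replicates. The largest were Psmd8 (-1.82 ± 0.34, edgeR adjusted p = 8.13e-04), Psmd13 (-1.68 ± 0.43, adjusted p = 0.00800), Psmd10 (-1.35 ± 0.35), Psmc1 (-1.34 ± 0.32) and Psmb4 (-1.2 ± 0.31). Psme4, which had the smallest p after Psmd8 (-0.93 ± 0.21, adjusted p = 0.00353), stood at 27.5, 38.2, 26.5, 30.2 and 35.1 CPM in ACBP and 42.9, 38.7, 30.8, 29.2 and 37.4 CPM in CDDP+ACBP. Psmc1 stood at 48.2, 80.2, 65.7, 53.8 and 74.1 CPM in ACBP and 83.4, 72.3, 58.3, 53.9 and 87.7 CPM in CDDP+ACBP, and Psmd9 at 31.6, 40.5, 39.2, 28 and 32.7 and 32.5, 35, 27.9, 30 and 45.3 CPM. In these 3 genes the highest CDDP+ACBP library lay below the lowest CDDP library, and the CDDP+ACBP values overlapped those of ACBP.

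The count of 16 depended on single libraries. It fell to 8 without ACBP replicate 2 or CDDP+ACBP replicate 4, to 9 without ACBP replicate 5, PBS replicate 1 or PBS replicate 5, and to 10 without CDDP replicate 2, CDDP replicate 5, CDDP+ACBP replicate 3 or PBS replicate 4. Over the 30 fits that each leave out 1 library, 8.61 to 13% of all genes were called negative. The count was 3 without the libraries rich in muscle or brain transcripts (5.93% of all genes) and 7 by limma voom (8.9% of all genes). With the mitochondrial share as a covariate it was 1, Psme2, with a positive interaction of 1.2 (adjusted p = 0.0363), as 0.54% of all genes. Psmb4, Psmd8 and Psme4 were called in each of the 39 settings without that covariate. The share and the pump moved together here as well: 5.43 to 12.6% in CDDP+ACBP against 2.74 to 3.81% in CDDP.

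For CRS against PBS, both with the PBS pump, edgeR called 0 of 39 genes, where 0.117% of all genes were called higher and 0.0245% lower. The estimates were mostly positive, in 36 of 39 genes, with a median log2 fold change of 0.22 against 0 over all genes. The unadjusted p was under 0.05 for 4, Psmb4, Psmb5, Psmd10 and Psme4, a share near the 8.97% of all genes. Psmb4 stood at 132, 150, 161, 79 and 120 CPM in CRS, where 4 of 5 libraries lay above the highest PBS library (0.50 ± 0.22, adjusted p = 0.521). Psmb5 stood at 94.3, 106, 113, 76.6 and 94.9 CPM (0.42 ± 0.16, adjusted p = 0.431), with replicate 4 within the PBS range. Psmd10 stood at 5.91, 6.44, 8.75, 5.15 and 4.69 CPM, above each PBS library, the only gene of the 39 without overlap, which held for 2.24% of all genes (0.63 ± 0.25, adjusted p = 0.455). DESeq2 called 0 genes, and its share of all genes is not given here. Limma voom called 2, Psmb4 (0.53, adjusted p = 0.0439) and Psmb5 (0.42, adjusted p = 0.0251), where it called 3.07% of all genes higher and 2.64% lower. The intervals of 36 genes lay within 1 log2 unit of 0, the others being Psma8, Psmd10 and Psmd13.

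In CRS+ACBP against ACBP edgeR called 0 of 39 genes, as 0% of all genes, with positive estimates in 39, a median of 0.32 against 0.02 over all genes, and an unadjusted p under 0.05 for 11, where 7.32% of all genes had one. The smallest p were those of Psme4 (0.46 ± 0.15, adjusted p = 0.533) and Psmd11 (0.49 ± 0.17, adjusted p = 0.540). In Psmc2, Psmc4 and Psmd11 the CRS+ACBP libraries all lay above the ACBP libraries, which held for 0.699% of all genes. Psme4 stood at 58.7, 41.6, 46.8, 35.2 and 35.1 CPM in CRS+ACBP, where the 2 lowest libraries lay within the ACBP range. Of the catalytic subunits, Psmb7 stood at 65.9, 76.5, 72.7, 60.7 and 87.6 CPM in ACBP and 128, 104, 118, 140 and 73 CPM in CRS+ACBP (0.63 ± 0.24, adjusted p = 0.566). Psmb6 stood at 203, 266, 207, 194 and 210 CPM in ACBP and 198, 233, 227, 376 and 217 CPM in CRS+ACBP (0.21 ± 0.15), with replicate 4 apart from the rest. With both pumps pooled, a contrast added after seeing the data, 0 of 39 genes passed, 38 had positive estimates, 21 had an unadjusted p under 0.05 (15.4% of all genes) and the smallest adjusted p was 0.0662. Signs of the estimates over all genes were not counted for the contrasts of CRS. The 2 CRS groups held the widest ranges of the mitochondrial share. With that share as a covariate the medians were 0.14 for CRS and 0.15 for CRS+ACBP. No gene of the 39 was called for the ACBP pump alone: in ACBP against PBS edgeR called 0 (0% of all genes), 0 had an unadjusted p under 0.05, the median was 0.07, and the intervals of 38 genes, all but Psma8, lay within 1 log2 unit of 0. In CRS+ACBP against CRS and in the interaction of CRS and ACBP 0 of 39 were called (0% of all genes in each), and 0 had an unadjusted p under 0.05. DESeq2 and limma voom called 0 in each of these 4 contrasts. For these counts, and for the counts of 0 by unadjusted p, the share of all genes is not given here.

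Cisplatin was also set against CRS, the other way of inducing anorexia, with the PBS pump in both. With edgeR, 20 of 39 genes were called higher in CDDP and 1, Psme2, lower (19.5% and 15.1% of all genes), with a median of 0.62. In 10 genes the CDDP libraries all lay above the CRS libraries, which held for 9.98% of all genes. The higher genes were 4 of 8 alpha, 2 of 7 beta, 2 of 6 ATPase and 7 of 11 other base and lid genes, 3 of 3 assembly factors and 2 of 4 activators. In CRS, Psmd13 stood at 26.4, 35.1, 35.6, 16.6 and 23 CPM and Psmd8 at 60.8, 75.1, 83.5, 47.4 and 55.7 CPM, each below the lowest CDDP library. Psmd13 was higher in CDDP by 1.76 ± 0.31, Psmd8 by 1.68 ± 0.25 and Psme4 by 0.76 ± 0.15 (log2). Psmb8, Psmb9 and Psmb10 were lower, at -0.91 ± 0.16, -1.54 ± 0.22 and -0.71 ± 0.20. The times after the pump differ between the 2 models, 72 h and 48 h, and the mitochondrial shares did not overlap. Without the libraries rich in muscle or brain transcripts 6 genes were called higher and 1 lower (8.62% and 7.76% of all genes), and with the mitochondrial share as a covariate 6, all lower (4.29% of all genes): Psma2, Psma4, Psmb5, Psmb7, Psme1 and Psme2.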

How the data were processed

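Liver mRNA of 30 libraries was sequenced (RNeasy kit, 1.5 µg total RNA, strand-specific, per the labels' protocols). The submitters' processing notes name HISAT2 2.2.1 for alignment, HTSeq 2.0.3 for counting and the build mm10. For the annotation release and the strand setting, no source used here gives a value. The values are the deposited raw counts per gene, not normalized. The files' 5 summary lines, among them reads on no gene (median 43.4% of reads), entered neither the library sizes nor the tests. Depth on genes was 13957380 to 18479134 reads per library, which limits precision mainly for genes under 1 CPM.

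From the counts, edgeR 4.0.16 (R 4.3.3; TMM, filterByExpr, quasi-likelihood F test, 1 fit of 30 libraries with 24 residual degrees of freedom) gave 10 contrasts and the slope on the mitochondrial share. P-values are 2-sided and Benjamini-Hochberg adjusted over the 16304 genes tested. The ± of a fold change or slope is an approximate SE from the F statistic, and intervals are 95%. Alternatives used DESeq2 1.42.0, limma 3.58.1 voom with quality weights, RLE factors, other filters, 2 groups alone, libraries left out and the mitochondrial share as a covariate, the last chosen after seeing the data. Ratios used Python 3.11.15 and scipy 1.17.1, with 0.5 counts added to each gene. The fit was tested on simulated data. Levels per length and positions used the GENCODE annotation of mm10, and promoters RefSeq's.

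Members and lists were chosen with earlier results of these data known. Values are given in full for the 2 genes of each class with the smallest p in CDDP against PBS, the genes called lower, the interactions with the smallest p and the catalytic pairs. Of other lists up to 3 genes with the smallest p are named, and Nfe2l1 and Nfe2l2 were added for their role after their values were seen.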

Additional observations from a re-analysis of the deposited data

Results flagged for a closer look

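Among 126 sets of 5 libraries, 11 had a library far from the other 4 (Dixon's test, limit 0.71); chance alone marks about 1 set in 20. In CRS+ACBP, replicate 5 was low for Psma6 (50 CPM, the next 71.8 CPM) and Psmb4 (91.2 CPM, the next 140 CPM), and replicate 4 was high for Psme2 (156 CPM, the next 109 CPM) and Psmb6 (376 CPM, the next 233 CPM). Replicate 4 was also low for the log2 ratio of Psmb8 over Psmb5 (-1.08, the next -0.83). Psmb6 was low in PBS replicate 1 (184 CPM, the next 205 CPM) and high in ACBP replicate 2 (266 CPM, the next 210 CPM). Psmc4 was high in CDDP replicate 5 (195 CPM, the next 120 CPM), and Psmd10 was low in PBS replicate 5 (2.74 CPM, the next 4.12 CPM). Psmb8 was low in CRS replicate 4 (45.3 CPM, the next 51.3 CPM), and Psmb10 was high in CDDP+ACBP replicate 5 (97.2 CPM, the next 66.0 CPM).

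For 16 genes the cisplatin effect differed between the pumps by the edgeR interaction (log2, effect under ACBP minus effect under PBS). All 16 were negative, where 11.3% of all genes were called negative and 8.38% positive. The lid and base genes were Psmd8 (-1.82), Psmd13 (-1.68), Psmd3 (-0.89), Psmd1 (-0.86), Psmd2 (-0.84) and Psmd11 (-0.67), and the ATPases Psmc1 (-1.34) and Psmc4 (-0.73). The assembly factors were Psmd10 (-1.35), Psmd9 (-1.14) and Psmd5 (-0.71). In the core they were Psmb4 (-1.2), Psma5 (-0.99), Psma6 (-0.95) and Psmb1 (-0.75), and among the activators Psme4 (-0.93). Adjusted p ran from 8.13e-04 (Psmd8) to 0.0495 (Psmd11). The count ranged from 8 to 20 when 1 library was left out. Of 39 settings without the mitochondrial covariate, Psmd11 was called in 9, Psmd3 in 13 and Psmb1 in 14. Psmb4, Psmd8 and Psme4 were called in all of them.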

How the results depend on the processing

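Counts are of the 39 genes called. With the mitochondrial share as a covariate, chosen after seeing the data, they were 1 for CDDP against PBS, 3 for CDDP+ACBP against CDDP, 6 for CDDP against CRS and 1 for the interaction of CDDP and ACBP; the share and cisplatin cannot be told apart. That covariate also turned CDDP against PBS for Psma6 (-0.13), Psmb1 (-0.29), Psmb5 (-0.35) and Psmb7 (-0.54), CDDP+ACBP against CDDP for Psma1 (0.01), Psmb1 (0.17) and Psmb7 (0.39), CDDP against CRS for Psma6 (-0.28), Psma1 (-0.16), Psmb4 (-0.27) and Psmd10 (-0.01), and the interaction for Psma6 (0.10) and Psmb1 (0.18). Limma voom called 2 for CRS against PBS, 7 for CDDP+ACBP against CDDP and 7 for the interaction. Fits of only the groups compared, which have fewer samples, called 12 for CDDP+ACBP against CDDP (8.41% of all genes lower) and 8 for the interaction. Without a filter on low counts the interaction had 8. For these counts of 8 the share of all genes called is not given here. Without the libraries rich in muscle or brain transcripts, which leaves 20 libraries, 7 were called for CDDP against CRS, 3 for the interaction and 18 for the slope on the mitochondrial share. The cause of the other changes was not tested.

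Leaving out 1 library at a time gave 27 to 30 calls for CDDP against PBS (of all genes, 19.8 to 23.6% higher and 15.6 to 19.1% lower). For CDDP+ACBP against CDDP it gave 22 to 25 (12.3 to 16.4% and 15.3 to 20%). For CDDP against CRS it gave 18 to 26 (16.1 to 20.3% and 12.3 to 16.7%). The interaction had 8 to 20 calls (6.44 to 10.3% positive and 8.61 to 13% negative). The slope had 17 to 32 (2.72 to 7.57% higher and 4.54 to 10.7% lower). The log2 fold change of Psmb6 in CDDP against PBS ranged from -0.04 to 0.04 and was 0.00 without a filter. In the same way the ratio Psmb8 over Psmb5 ranged from -1.18 to -0.88 for CDDP against PBS and from -0.38 to -0.18 for CRS+ACBP against ACBP. Psmb9 over Psmb6 ranged from -1.29 to -0.94 for CDDP against PBS and from 1.02 to 1.37 for CDDP+ACBP against CDDP. Psmb10 over Psmb7 ranged from -1.76 to -1.38, from 1.21 to 1.59, from -0.16 to 0.16 for ACBP against PBS and from -0.17 to 0.16 for CRS+ACBP against CRS. Fewer libraries raise the smallest p that these exact tests can give. Without the muscle or brain libraries the ratios for CDDP against PBS were -1.12 (Psmb8 over Psmb5), -1.0 (Psmb9 over Psmb6) and -1.62 (Psmb10 over Psmb7), and those for CDDP+ACBP against CDDP were 0.93 (Psmb9 over Psmb6) and 1.34 (Psmb10 over Psmb7), each with an adjusted p of 0.12. There Psmb9 over Psmb6 was 0.25 for CRS+ACBP against CRS, and Psmb10 over Psmb7 was 0.02 for CDDP+ACBP against ACBP, -0.29 for ACBP against PBS and 0.10 for CRS+ACBP against CRS, none past the threshold. Of 2710 alternative values for 72 results of single genes, 2524 kept direction and call, 162 lost the call, 3 gained it (Psmb5 in CDDP against PBS) and 21 changed sign. No paired analysis was possible because the replicate numbers follow the order of the records and pair no libraries.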
